A study of Mus musculus with 2756 samples.

Results

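Kinesins and cytoplasmic dyneins are the motor proteins that move along microtubules. Kinesins mostly walk towards the growing plus ends and dynein towards the minus ends. The genes described here were chosen by symbol alone: every gene of the count table whose symbol starts with Kif and a digit, or with Kifc, Klc, Dync or Dynl. That rule found 56 of 16441 genes, made up of 37 Kif genes, 4 kinesin light chains (Klc), 7 dynein chains (Dync) and 8 dynein light chains (Dynl). Klc and Dynl genes, and several Dync genes, code for subunits that carry no motor domain. Together the 56 genes took 0.629% of all counts.

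Mouse embryos were injected at embryonic day 12, 13, 14 or 15 (E12 to E15) with FlashTag, a dye that labels cells dividing at the ventricle, and labelled cells of the putative primary somatosensory cortex were taken 1 h, 24 h or 96 h later. The dissociated cells were sorted for the brightest FlashTag signal and captured on microfluidic chips, and full-length cDNA of each cell was sequenced. This gave 12 groups, 1 for each injection day and collection time, and no group was given a genotype, strain or other agent in the labels. Which animals gave the cells, and whether litters were pooled, is not given in the sources used here, so each group counts as 1 sample, and any p-value reflects how far these single samples spread, which may be technical. The 2756 cells carried the authors' cluster labels: 4 apical progenitor clusters (AP), 2 basal progenitor clusters (BP), 1-day neurons (N1d), 4-day neurons (N4d), interneurons (IN) and astrocytes (Astro), 15 clusters in all. A cell had a median of 328910 counts, with a range of 13191 to 1312820.

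In dividing progenitors, a set of kinesins builds the spindle, moves chromosomes and closes the cleavage furrow. In neurons, which no longer divide, other kinesins carry vesicles, mitochondria and RNA out along the axon, and dynein brings cargo back and pulls the nucleus during migration. The members were sorted by these roles: 14 mitotic and cytokinetic kinesins, 14 transport kinesins, 4 kinesin light chains, 9 kinesins of microtubule ends, cilia or other roles, 5 chains of cytoplasmic dynein 1, 2 chains of the ciliary dynein 2 and 8 dynein light chains.

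Promoter sequence is shown first because the changes of the mitotic kinesins below all had 1 sign. Genes of mitosis are known for a pair of promoter motifs, the CCAAT box, which NF-Y binds, and the cell cycle homology region, which the DREAM and MuvB complexes bind. RefSeq windows of the 250 bases before the start were matched for 43 of the 56 members (49 windows, build GRCm38.p6), and the letters CCAAT and TTTGAA were searched on both strands. A CCAAT match was found in 9 of 13 mitotic kinesin genes with a window (69.2%), against 40.8% of the 10341 genes of the count table that have one. A TTTGAA match was found in 5 of the 13 (38.5%) against 12.4%, and both motifs in 3 of the 13, Kif11, Kif14 and Kif22 (23.1%), against 4.86%. Of 9 transport kinesin genes with a window, 3 held CCAAT, 1 held TTTGAA and 0 held both. Of 8 kinesin genes of microtubule ends, cilia or other roles, 3 held CCAAT and 2 held TTTGAA. Both motifs stood in 2 of these 8, Kif26b and Kif27 (25.0%), a share close to that of the mitotic kinesins. Kif26b rose with collection time, as given below. CCAAT stood in 2 of 3 kinesin light chain genes, and no kinesin light chain or dynein gene held TTTGAA. The matches of the motifs shared 0 bases with each other. Of the 13 mitotic windows, 3 lie inside the gene's own GENCODE model (Kif14, Kif2c and Kif4) and 6 hold bases of a GENCODE exon (Kif4, Kif15, Kif18a, Kif22, Kif24 and Kifc1). Of the 5 with neither, 4 held CCAAT, 1 held TTTGAA and 1, Kif11, held both. The Kif27 window, and the Kif1a window with the TTTGAA match, also lie inside the gene's own model. Of 5 transport kinesin windows with neither, 2, both of Kif1b, held CCAAT and 0 held TTTGAA. Of 4 such windows of kinesins of microtubule ends, cilia or other roles, 1, that of Kif26b, held both motifs. The share of all genes was not computed for such windows alone. A match is a description of the letters and not a measured binding site.

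The windows below, in 5' to 3' direction of the gene with motif matches in capitals, stand for the main patterns of the members: a spindle motor with both motifs (Kif11), a mitotic kinesin with a pair of CCAAT matches (Kif18b), a kinesin that is neither mitotic nor a known cargo carrier and holds both motifs (Kif26b), a neuronal transport motor with neither (Kif5c) and the dynein chain that rose most (Dync1i1). They lie at chr19:37376132-37376381 (plus strand), chr11:102925125-102925374 (minus strand), chr1:178528875-178529124 (plus), chr2:49619036-49619285 (plus) and chr6:5725389-5725638 (plus). None of the 5 windows held a base that GENCODE puts in an exon.
Kif11: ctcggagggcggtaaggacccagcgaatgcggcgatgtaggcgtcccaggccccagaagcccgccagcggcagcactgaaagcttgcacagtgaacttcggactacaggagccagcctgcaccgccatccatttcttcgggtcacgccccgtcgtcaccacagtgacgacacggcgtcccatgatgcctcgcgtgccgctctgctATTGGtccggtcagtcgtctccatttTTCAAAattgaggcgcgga
Kif18b: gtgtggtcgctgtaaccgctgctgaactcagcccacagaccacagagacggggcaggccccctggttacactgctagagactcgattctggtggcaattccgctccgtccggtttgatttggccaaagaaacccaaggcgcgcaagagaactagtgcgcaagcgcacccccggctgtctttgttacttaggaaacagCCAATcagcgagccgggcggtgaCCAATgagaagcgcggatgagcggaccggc
Kif26b: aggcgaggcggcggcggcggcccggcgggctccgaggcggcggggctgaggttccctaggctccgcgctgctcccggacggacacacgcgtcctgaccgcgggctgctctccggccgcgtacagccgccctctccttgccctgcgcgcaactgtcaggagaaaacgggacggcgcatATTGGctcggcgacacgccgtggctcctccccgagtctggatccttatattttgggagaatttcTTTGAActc
Kif5c: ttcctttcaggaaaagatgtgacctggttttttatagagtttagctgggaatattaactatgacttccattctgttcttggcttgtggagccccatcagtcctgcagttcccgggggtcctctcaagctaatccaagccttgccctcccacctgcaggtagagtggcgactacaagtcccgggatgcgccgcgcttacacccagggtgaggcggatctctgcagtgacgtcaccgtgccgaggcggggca
Dync1i1: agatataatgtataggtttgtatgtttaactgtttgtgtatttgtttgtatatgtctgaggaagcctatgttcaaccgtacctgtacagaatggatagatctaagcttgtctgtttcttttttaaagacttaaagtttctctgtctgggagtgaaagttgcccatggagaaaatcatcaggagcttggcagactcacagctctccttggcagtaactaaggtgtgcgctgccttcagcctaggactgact
Counted back from the first base before the start as -1, the CCAAT match of Kif11 began at -45 and its TTTGAA match at -19. The CCAAT matches of Kif18b began at -53 and -30. In Kif26b the CCAAT match began at -73 and the TTTGAA match at -9.

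For the comparison of collection times, the counts of each group's progenitors and cortical neurons (AP, BP, N1d, N4d; 2449 cells in all) were added up and called lineage sums, with a total of 46107467 to 98041363 counts each. Levels are given as counts per 1000000 counts of a sum (CPM), always in the order E12, E13, E14, E15. CPM is not divided by gene length, so levels are compared between cells and not between genes. The defining markers followed the labels. The 5 young neuron markers summed to 253.9 to 730 CPM at 1 h and 3815 to 5281 CPM at 24 h, and the 5 older neuron markers to 171.4 to 217.2 CPM at 24 h and 2276 to 4487 CPM at 96 h. The 10 markers of G2 and M phase that are no motors summed to 2676 to 3794 CPM at 1 h, 829 to 2223 CPM at 24 h and 205.1 to 320 CPM at 96 h. The 6 interneuron markers lay between 3.00 and 7.86 CPM at 24 h but between 80.5 and 207.5 CPM at 96 h, microglia markers (2 of 4 in the table) were at most 3.80 CPM, the 1 endothelial marker in the table at most 14.2 CPM, and 0 of 3 red blood markers were in the table. The median mitochondrial share per cell was 4.77% to 5.35% at 1 h, 2.83% to 4.05% at 24 h and 4.36% to 6.15% at 96 h. Each collection time has run codes of its own, so time and run cannot be told apart. In such sums fewer cells of a type and less RNA per cell cannot be told apart either.

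From 1 h to 24 h, 11 of the 45 members that passed the low-count filter rose and 3 fell (edgeR quasi-likelihood test, Benjamini-Hochberg adjusted p under 0.05 over 10210 genes). Among all genes tested 11.4% rose and 7.76% fell. The rise was carried by transport kinesins (4 of 13), kinesins of microtubule ends and other roles (2 of 6), dynein 1 chains (2 of 5), dynein light chains (2 of 6) and Klc1. The largest rise was that of Kif21b, and the falls were those of Kif15, Kif23 and the ciliary dynein Dync2h1. From 24 h to 96 h, 10 members rose and 6 fell, where all genes gave 11.7% and 12.5%. All 6 that fell were mitotic kinesins, and the largest rises were those of Dync1i1, the low Kifc3, Kif26b, Kif5a, Kif3b and Kif1a. Of these, Dync1i1 and Kifc3 passed the low-count filter only through sums of 96 h, where they are high. The count of risers at 24 h was 6 without the E12 1 h sum and 7 without the E12 24 h sum, the count of 3 falls was 1 without the E14 24 h sum, and the count of risers at 96 h was 5 without the E15 24 h sum and 6 without the E12 96 h sum. The remaining 11 members missed the filter of 10 CPM in 3 of 12 sums: Kif24, Kifc1, Kifc5b, Kif16b, Kif27, Kif6, Kif9, Klc2, Klc3, Dynlt1a and Dynlt1b.

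**Figure D1:**
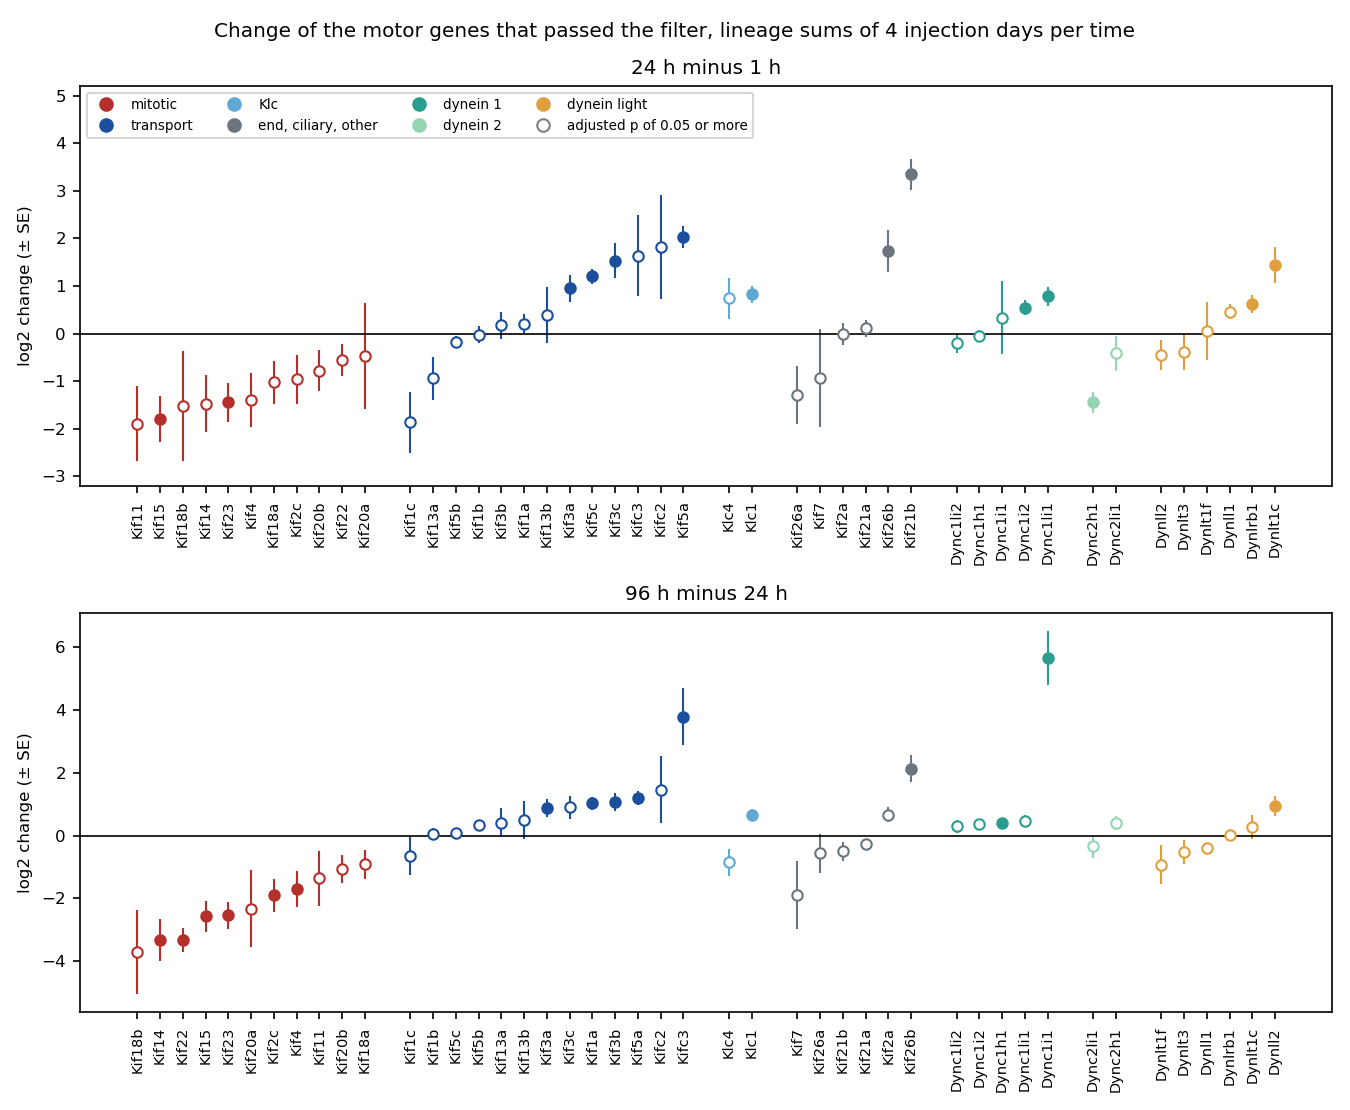
Log2 change with its standard error for each of the 45 members tested, from 1 h to 24 h and from 24 h to 96 h, grouped by role, with filled points for an adjusted p under 0.05 and open points for the others. The 11 mitotic kinesins lie below 0 in both steps, with medians of -1.39 and -2.33, while 12 of 13 transport kinesins lie above 0 in the later step.

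The mitotic and cytokinetic kinesins stood highest at 1 h, when the cells are mostly apical progenitors, and lowest at 96 h. Their summed level was 820, 625, 617 and 579 CPM at 1 h, 471, 306, 160 and 222.04 CPM at 24 h, and 84.3, 52.9, 52.3 and 117.99 CPM at 96 h. The groups of sums do not overlap at either step. In the test, 2 of 11 fell from 1 h to 24 h (median log2 change -1.39, range -1.89 to -0.47) and 6 of 11 fell from 24 h to 96 h (median -2.33, range -3.71 to -0.91). The medians over all genes tested were -0.003 and -0.027. The count of 2 became 0 without the E14 24 h sum, 1 without the E13 24 h, E15 24 h or E15 1 h sum, 4 with DESeq2 (10.7% of all genes were lower there) and 8 when only AP at 1 h and N1d at 24 h were compared (14.9% of all genes). The G2 and M phase markers moved alongside, with 7 of 10 lower in the first step and 10 of 10 in the second, and their part in these changes was not tested.

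Kif15, which keeps spindle poles apart alongside Kif11, gave 188.9, 103.9, 140.7 and 92.1 CPM at 1 h, 67.6, 47.1, 21.7 and 25.6 CPM at 24 h, and 11.6, 3.95, 1.28 and 8.28 CPM at 96 h. The 3 groups of sums do not overlap. It fell in both steps, by 1.79 ± 0.48 (SE) and by 2.57 ± 0.49 on the log2 scale (adjusted p = 0.0181 and 0.00279, edgeR), each lost under 1 of 19 alternatives. Kif23, the kinesin of the central spindle that is needed to complete cytokinesis, gave 59.7, 73.2, 76.8 and 94.2 CPM at 1 h, 58.4, 31.1, 15.6 and 19.1 CPM at 24 h, and 7.98, 2.81, 3.24 and 5.70 CPM at 96 h. It fell by 1.44 ± 0.41 and then by 2.54 ± 0.42 on the log2 scale (adjusted p = 0.0251 and 0.00108, edgeR), and the first call was lost under 4 of 19 alternatives.

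Kif22, which pushes chromosome arms away from the poles, gave 78.8, 65.4, 51.2 and 36.6 CPM at 1 h, 85.7, 37.5, 21.0 and 26.6 CPM at 24 h, and 3.39, 3.54, 5.57 and 2.10 CPM at 96 h. The groups at 1 h and 24 h overlap, and every sum at 96 h lies below every earlier one. Its change to 24 h missed the threshold (log2 -0.56 ± 0.34, adjusted p = 0.282, edgeR), and its fall to 96 h was 10.0-fold (adjusted p = 8.8e-05, edgeR). Kif4, a chromokinesin that sets the length of the central spindle, gave 99.5, 64.5, 102.2 and 98.2 CPM at 1 h, 51.1, 31.2, 16.6 and 43.6 CPM at 24 h, and 21.3, 6.13, 1.59 and 14.2 CPM at 96 h. Only the later step passed, at -1.70 ± 0.57 (adjusted p = 0.0439, edgeR), and it missed the threshold under 10 of 19 alternatives. Its opposite-strand neighbour Pdzd11 shares exon bases with it, and whether counting used strand is not given in the sources used here. The same holds for Kif18a with Mettl15, Kif20a with Cdc23 and Kif2a with Dimt1.

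Kif11, the motor that slides spindle microtubules apart, gave 122.2, 88.2, 83.6 and 91.4 CPM at 1 h, 44.6, 22.6, 7.94 and 27.0 CPM at 24 h, and 0.755, 7.07, 5.41 and 35.7 CPM at 96 h. All 4 sums at 24 h lie below all 4 at 1 h, but the spread was wide and neither step passed (log2 -1.89 ± 0.78, adjusted p = 0.11, and -1.36 ± 0.87, adjusted p = 0.277, edgeR). Kif14, a cytokinesis kinesin, fell by 3.33 ± 0.67 on the log2 scale from 24 h to 96 h (adjusted p = 0.00364, edgeR) at a mean of 5.77 CPM. Kif2c, which takes microtubules apart at kinetochores, fell by 1.90 ± 0.53 in that step (adjusted p = 0.0198, edgeR; lost under 4 of 19 alternatives). Kif18a, Kif18b, Kif20a and Kif20b did not pass in either step.

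The transport kinesins moved the other way. Their summed level was 1082, 1266, 1286 and 1385 CPM at 1 h, 1418, 1852, 1661 and 1414 CPM at 24 h, and 2106, 1910, 2370 and 2049 CPM at 96 h, with no overlap between times. Of the 13 tested, 4 rose and 0 fell from 1 h to 24 h (Kif5a, Kif5c, Kif3a and Kif3c; median log2 change 0.40), and 5 rose and 0 fell from 24 h to 96 h (Kif5a, Kif1a, Kif3a, Kif3b and Kifc3; median 0.87). Kifc3, a kinesin with its motor at the other end of the chain, was at most 2.29 CPM before 96 h and 9.95 to 26.4 CPM at 96 h (log2 3.79 ± 0.90, adjusted p = 0.00915, edgeR; lost under 1 of the 16 alternatives that could be fitted). It passed the low-count filter only through sums of 96 h, the time at which it is high. Its place among the 5 is therefore not independent of the filter. The later count was 3 without the E15 24 h or the E12 96 h sum and 3 with N1d and N4d cells alone. Interneuron markers were higher at 96 h in the same sums, as given above, and their part in the later step was not tested.

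The Kif5 genes code for the heavy chains of conventional kinesin, kinesin-1: Kif5b in most cells, Kif5a and Kif5c mainly in neurons. Kif5a gave 19.4, 11.8, 14.1 and 21.7 CPM at 1 h, 54.04, 84.4, 77.4 and 58.9 CPM at 24 h, and 151.8, 138.6, 171.8 and 145.9 CPM at 96 h. It rose 4.06-fold and then 2.29-fold with no overlap between groups (adjusted p = 8.92e-05 and 0.00238, edgeR), and both calls held under all 19 alternatives. Kif5c gave 181.5, 180, 133.4 and 132.8 CPM at 1 h, 374, 482, 360 and 251.5 CPM at 24 h, and 410, 328, 420 and 323 CPM at 96 h. It rose 2.30-fold in the first step (adjusted p = 0.000345, edgeR), and its later log2 change was 0.08 ± 0.16. Kif5b gave 324, 265.3, 283.9 and 368 CPM at 1 h, 247.95, 285.8, 288.7 and 293.8 CPM at 24 h, and 305, 312, 373 and 389 CPM at 96 h, and passed in neither step.

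Kinesin-3 motors carry synaptic vesicle precursors, among other cargo. Kif1a gave 129.3, 155.1, 127.6 and 170 CPM at 1 h, 141.7, 159.3, 232.7 and 145.3 CPM at 24 h, and 340, 285.3, 427 and 285.3 CPM at 96 h. It rose 2.03-fold in the later step alone (adjusted p = 0.00318, edgeR), and every sum at 96 h lies above every earlier one. Kif1b gave 312, 464, 546 and 486 CPM at 1 h, 373, 573, 411 and 434 CPM at 24 h, and 481, 387, 525 and 411 CPM at 96 h, with log2 changes of -0.03 ± 0.18 and 0.06 ± 0.18. Kif1c, by contrast, had a log2 change of -1.86 ± 0.64 to 24 h that missed the threshold (adjusted p = 0.0585, edgeR).

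Kinesin-2 pairs Kif3a with Kif3b or Kif3c and the adaptor Kifap3, and drives transport in cilia and axons. Kif3a gave 17.5, 49.3, 53.2 and 76.4 CPM at 1 h, 75.3, 57.9, 126.9 and 100.96 CPM at 24 h, and 131.3, 173.3, 137.3 and 185.3 CPM at 96 h. It rose by 0.95 ± 0.29 and by 0.87 ± 0.29 on the log2 scale (adjusted p = 0.0341 and 0.0413, edgeR), with the first groups overlapping, and these calls were lost under 7 and 10 of 19 alternatives. Kif3c gave 9.06, 27.4, 35.7 and 48.5 CPM at 1 h, 71.4, 112.6, 87.8 and 63.5 CPM at 24 h, and 177.4, 162.5, 133.1 and 127.4 CPM at 96 h, with no overlap between neighbouring times. It rose by 1.53 ± 0.38 in the first step (adjusted p = 0.0128, edgeR), and the second missed the threshold (0.90 ± 0.36, adjusted p = 0.0873, edgeR). Kif3c shares exon bases with an opposite-strand transcript. Kif3b gave 20.5, 29.5, 36.5 and 30.2 CPM at 1 h, 32.9, 46.3, 23.1 and 28.7 CPM at 24 h, and 51.5, 48.5, 89.2 and 87.3 CPM at 96 h, and rose in the later step alone (1.08 ± 0.29, adjusted p = 0.0153, edgeR; lost under 1 of 19 alternatives).

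Kinesin light chains tie kinesin-1 to its cargo. Klc1 gave 90.1, 112.1, 83.3 and 88.2 CPM at 1 h, 207.2, 215.2, 144.5 and 118.2 CPM at 24 h, and 306, 225.6, 255.98 and 249.3 CPM at 96 h, and rose in both steps (0.82 ± 0.17 and 0.67 ± 0.17 on the log2 scale, adjusted p = 0.00499 and 0.0125, edgeR; lost under 1 and 3 of 19 alternatives). It shares exon bases with Xrcc3 on the other strand. Klc4 gave 10.1, 32.6, 16.3 and 24.5 CPM at 1 h, 33.0, 27.8, 31.5 and 49.5 CPM at 24 h, and 22.8, 6.65, 22.7 and 24.0 CPM at 96 h, and passed in neither step.

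**Figure D2:**
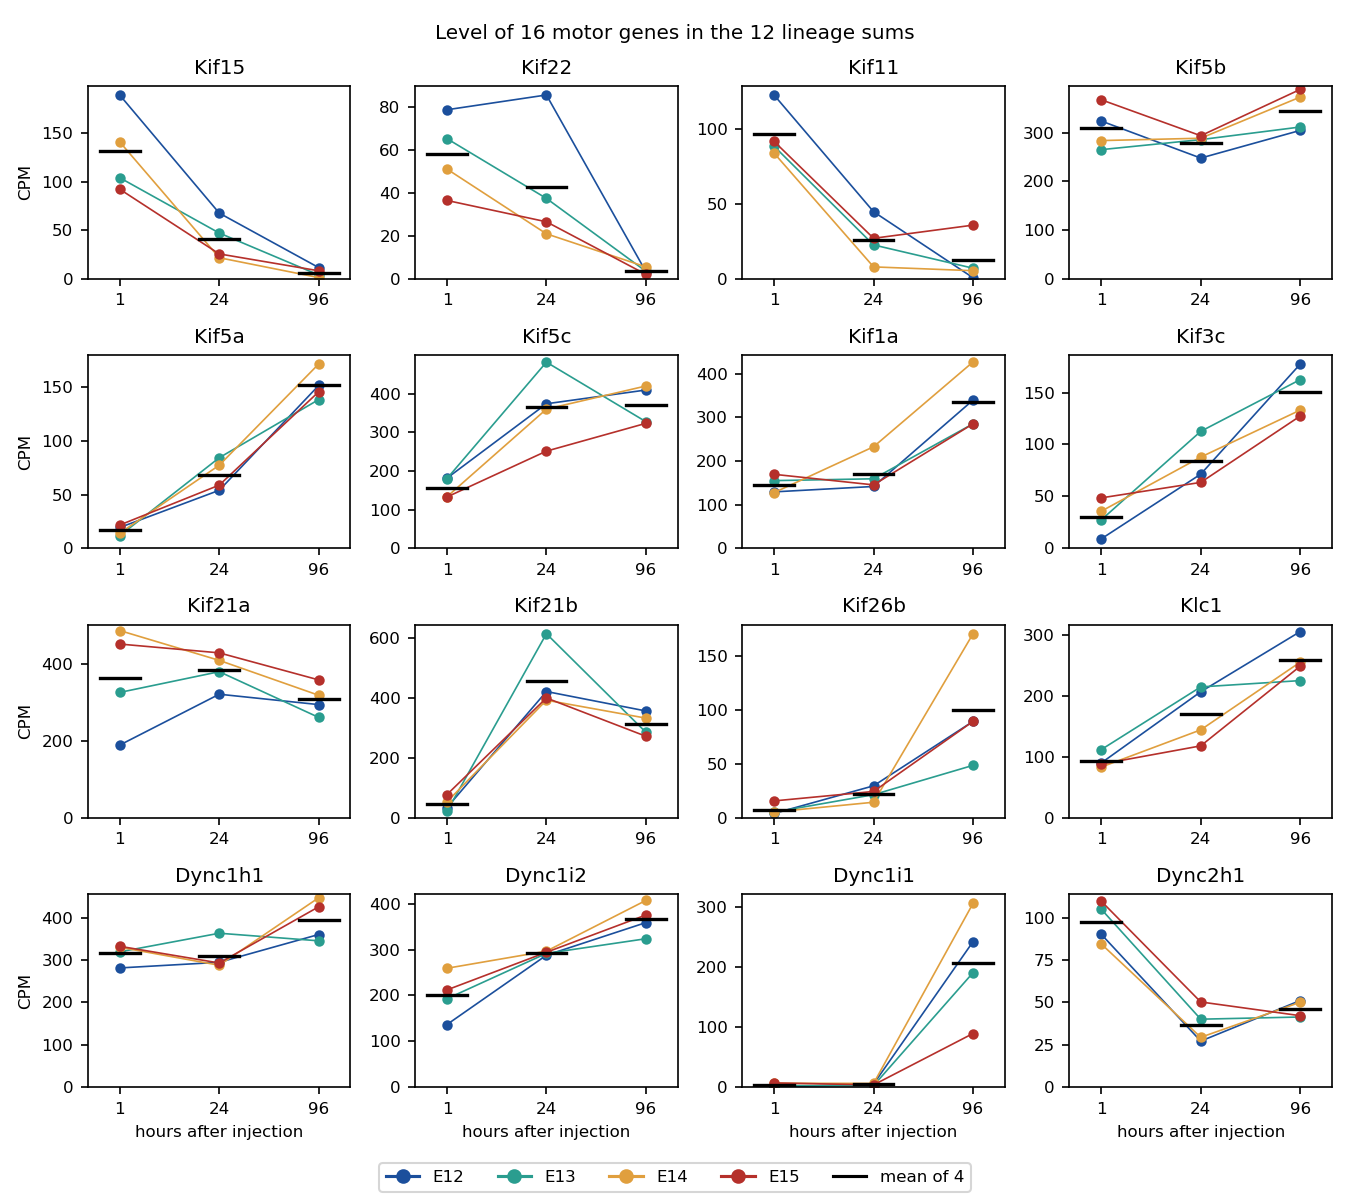
CPM of 16 motor genes in each of the 12 lineage sums against hours after injection on an evenly spaced axis, with lines joining the sums of 1 injection day and a black bar at the mean of 4. Kif21b lies at 21.1 to 77.03 CPM at 1 h and 392 to 613 CPM at 24 h, and Dync1i1 at 2.50 to 6.09 CPM at 24 h and 89.3 to 306 CPM at 96 h.

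Kif21a and Kif21b are kinesin-4 motors that hold back microtubule growth. Kif21b gave 33.7, 21.1, 52.8 and 77.03 CPM at 1 h, 421, 613, 392 and 399 CPM at 24 h, and 356, 284.8, 332 and 271.5 CPM at 96 h. Its 10.1-fold rise to 24 h was the largest of the 45 members in that step (adjusted p = 3.26e-05, edgeR), and the later change missed the threshold (-0.50 ± 0.29, adjusted p = 0.228, edgeR), although every sum at 96 h lies below every sum at 24 h. Kif21a gave 190, 327, 488 and 453 CPM at 1 h, 322, 381, 410 and 430 CPM at 24 h, and 295.1, 261.7, 319 and 360 CPM at 96 h, with log2 changes of 0.11 ± 0.18 and -0.27 ± 0.18. Kif2a, which shortens microtubules and limits axon branches, gave 140, 99.1, 73.2 and 88.9 CPM at 1 h, 72.2, 88.4, 118.3 and 120.7 CPM at 24 h, and 151.5, 170, 175.6 and 120.8 CPM at 96 h, and its later change of 0.66 ± 0.24 missed the threshold (adjusted p = 0.0582, edgeR).

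Kif26b, an atypical kinesin with roles in cell polarity and signalling, gave 3.89, 5.12, 5.29 and 15.5 CPM at 1 h, 29.6, 21.3, 14.3 and 24.3 CPM at 24 h, and 89.3, 48.5, 170.6 and 89.3 CPM at 96 h. It rose by 1.73 ± 0.44 and then by 2.13 ± 0.44 on the log2 scale (adjusted p = 0.0155 and 0.0041, edgeR), and the first call was lost under 4 of 19 alternatives. The values at 1 h and 24 h overlap through the E15 1 h sum, and the groups at 24 h and 96 h do not overlap. Besides AP cells, the E15 1 h sum holds 32 BP, 10 N1d and 13 N4d cells, and their part in its value was not tested.

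Cytoplasmic dynein 1 is built on the heavy chain Dync1h1, with intermediate chains (Dync1i1, Dync1i2) that bind dynactin and light intermediate chains (Dync1li1, Dync1li2) that bind cargo adaptors. Dync1h1 gave 281.5, 320, 330 and 333 CPM at 1 h, 294.8, 364, 287.9 and 293.2 CPM at 24 h, and 361, 346, 447 and 426 CPM at 96 h. Its rise to 96 h was 1.31-fold (adjusted p = 0.044, edgeR), was seen on 3 of 4 injection days and was lost under 13 of 19 alternatives. Dync1i2 gave 136.6, 192.9, 259.4 and 212.1 CPM at 1 h, 287.8, 291.9, 296.7 and 294.3 CPM at 24 h, and 359, 324, 407 and 376 CPM at 96 h, and rose in the first step (0.54 ± 0.16 on the log2 scale, adjusted p = 0.028, edgeR; lost under 7 of 19 alternatives).

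The other intermediate chain moved far more. Dync1i1, the form found mainly in neurons, gave 0.0662, 2.48, 6.37 and 6.93 CPM at 1 h, 5.14, 2.50, 6.09 and 3.64 CPM at 24 h, and 242.2, 190.6, 306 and 89.3 CPM at 96 h. The rise to 96 h was 50.5-fold (log2 5.66 ± 0.87, adjusted p = 0.000702, edgeR) and held under all 19 alternatives, between log2 5.38 and 6.40. Dync1i1 passed the low-count filter only through the sums of 96 h. The lowest sum at 96 h is that of E15 and the highest that of E14. Interneuron markers were also higher at 96 h in these sums, and their part in this rise was not tested. The levels of Dync1i1 in IN and N4d are given below. Dync1li1 gave 48.5, 43.3, 48.4 and 57.1 CPM at 1 h, 108.6, 105.1, 70.5 and 66.1 CPM at 24 h, and 126.2, 115.5, 123.7 and 98.7 CPM at 96 h, and rose in the first step (0.78 ± 0.19, adjusted p = 0.0121, edgeR). Dync1li2, with 98.7 to 173.04 CPM at 1 h, 113.3 to 155.8 CPM at 24 h and 124.6 to 192.7 CPM at 96 h, passed in neither.

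Dynein 2 runs inside cilia, back from tip to base. Its heavy chain Dync2h1 gave 90.2, 104.96, 84.5 and 110 CPM at 1 h, 27.1, 40.1, 29.4 and 50.2 CPM at 24 h, and 51.1, 41.4, 50.1 and 42.1 CPM at 96 h. It fell 2.72-fold to 24 h (log2 -1.44 ± 0.22, adjusted p = 0.000597, edgeR), a call that held under all 19 alternatives, and did not pass in the later step (0.40 ± 0.21, adjusted p = 0.194, edgeR). Dync2li1 passed in neither step. Kif7, a ciliary kinesin of Hedgehog signalling, was low, with a mean of 8.07 CPM over the sums at 1 h and 24 h, and passed in neither.

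Dynein light chains are small subunits, several of which also bind other proteins. Dynlrb1 gave 438, 667, 675 and 652 CPM at 1 h, 1123, 868, 1005 and 840 CPM at 24 h, and 1121, 1127, 739 and 796 CPM at 96 h. It rose by 0.63 ± 0.18 on the log2 scale in the first step with no overlap (adjusted p = 0.0295, edgeR), which 9 of 19 alternatives lost. Dynll1 gave 1015, 1190, 972 and 1118 CPM at 1 h, 1620, 1269, 1688 and 1410 CPM at 24 h, and 1081, 1331, 1118 and 857 CPM at 96 h. Its mean was highest at 24 h, but its changes of 0.46 ± 0.15 and -0.41 ± 0.15 missed the threshold (adjusted p = 0.0518 and 0.07, edgeR). Dynll2 gave 146.1, 61.1, 112.5 and 46.7 CPM at 1 h, 93.2, 93.7, 46.6 and 40.7 CPM at 24 h, and 129.4, 108.7, 84.6 and 147.9 CPM at 96 h, and its later rise (0.94 ± 0.32, adjusted p = 0.0465, edgeR) was lost under 10 of 19 alternatives. Dynlt1c rose from 8.98 to 14.2 CPM to 17.3 to 48.9 CPM in the first step (1.45 ± 0.38, adjusted p = 0.0173, edgeR; lost under 3 of 19 alternatives). Reads of Dynlt1c cannot be surely told from those of its near copies Dynlt1a, Dynlt1b and Dynlt1f, so that value is uncertain.

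Within a family of paralogs, the share of each gene in the family's summed counts does not depend on library scaling. An exact two-sided permutation test of 4 sums against 4 cannot give a p below 0.0286, and none of the 26 shares tested passed after adjustment (12 of 26 were at that smallest p, adjusted p = 0.0619). The share of Kif5a in the 3 Kif5 genes was 3.69%, 2.57%, 3.27% and 4.15% at 1 h, 7.99%, 9.90%, 10.7% and 9.74% at 24 h, and 17.5%, 17.8%, 17.8% and 17.0% at 96 h. The shares of the 3 times do not overlap. Kif5b held 63.99% ± 5.34 (SD, n = 4) of the family at 1 h, 39.6% ± 6.50 at 24 h and 39.8% ± 4.21 at 96 h, and Kif5c 32.6% ± 5.91, 50.8% ± 6.81 and 42.7% ± 3.97.

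In other pairs the turn came at 1 step. The share of Kif21a in Kif21a plus Kif21b was 84.9%, 93.9%, 90.2% and 85.5% at 1 h and 43.4%, 38.3%, 51.2% and 51.9% at 24 h, with 49.8% ± 5.02 (SD, n = 4) at 96 h. Dync1i1 made up 1.46% ± 0.523 of Dync1i1 plus Dync1i2 at 24 h and 34.9% ± 10.7 at 96 h (40.3%, 37.0%, 42.9% and 19.2%). Kif1a held 27.6% ± 6.17 of Kif1a plus Kif1b at 24 h and 42.4% ± 1.74 at 96 h, and Dync1li1 25.9% ± 5.33 of the light intermediate chains at 1 h and 40.2% ± 5.89 at 24 h. Kif2a made up 82.6% ± 13.6 of Kif2a plus the mitotic Kif2c at 24 h and 97.1% ± 2.00 at 96 h. In each of these steps the groups do not overlap.

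**Figure D3:**
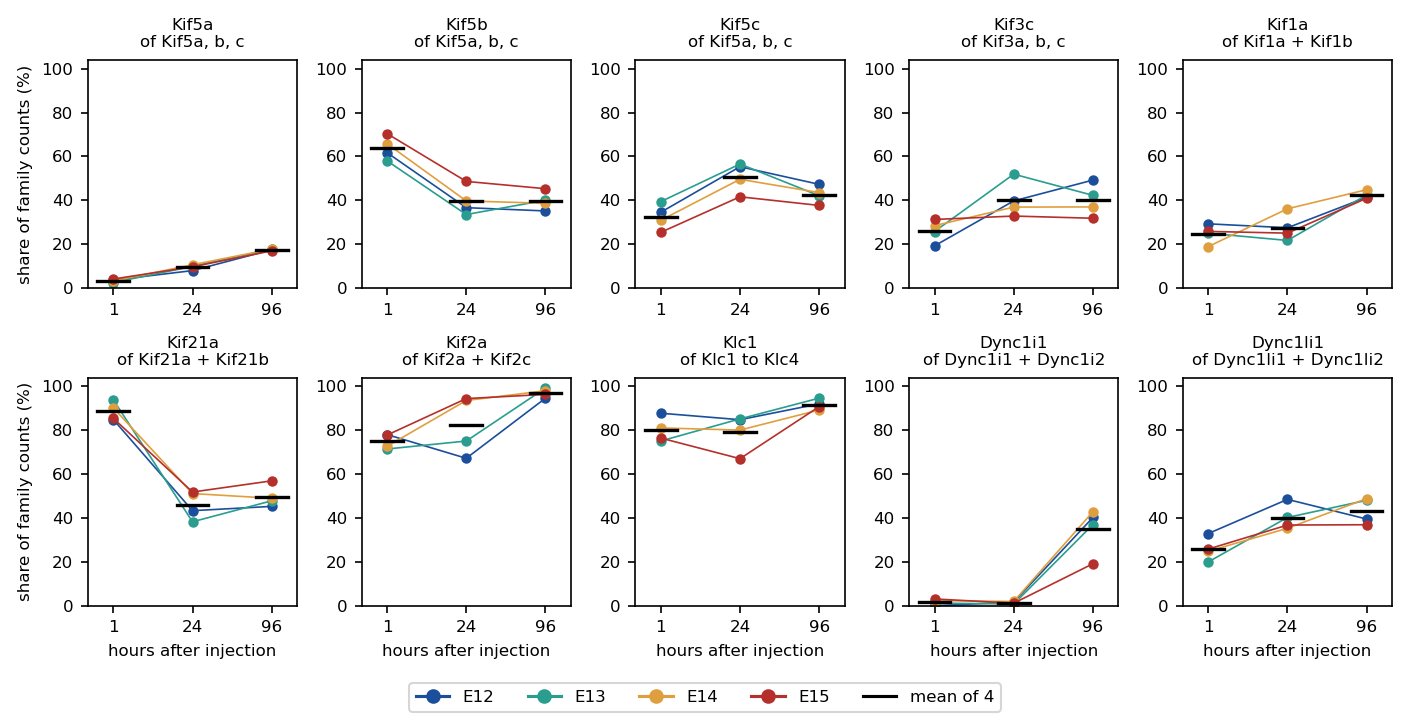
Share of a paralog in the summed counts of its family, in percent, in each of the 12 lineage sums against hours after injection on an evenly spaced axis, with lines joining the sums of 1 injection day and a black bar at the mean of 4. The share of Kif5a lies at 2.57% to 4.15% at 1 h, 7.99% to 10.7% at 24 h and 17.0% to 17.8% at 96 h, while that of Dync1i1 is at most 3.16% before 96 h.

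The clusters were made from the expression of the same cells, so differences between clusters and classes are given as values with no test. The summed mitotic kinesins reached 831, 639, 632 and 682 CPM in AP at 1 h, 995, 417, 521 and 316 CPM in AP at 24 h, and 871, 888, 138.8 and 406 CPM in BP at 24 h. They stood at 173.2, 88.4, 54.7 and 113.8 CPM in N1d at 24 h, 58.02, 32.2, 34.02 and 58.9 CPM in N4d at 96 h, and 45.3, 40.6, 25.0 and 252.1 CPM in IN at 96 h, where E15 stands apart and the G2 and M phase markers lay between 48.9 and 557 CPM. The AP sums of 24 h rest on 14 to 44 cells and the E14 BP sum on 8 cells, all of the cluster BP.late. The G2 and M phase markers without motors lay at 2859 to 3806 CPM in AP at 1 h, 505 to 4218 CPM in BP and 212.4 to 731 CPM in N1d at 24 h, and their part was not tested. Summed transport kinesins were 1245 ± 138.2 CPM (SD, n = 4) in AP at 1 h, 1243 ± 144.8 CPM in AP at 24 h, 1265 ± 145.4 CPM in BP, 1783 ± 259.2 CPM in N1d, 2152 ± 194.8 CPM in N4d and 1875 ± 140 CPM in IN. The order of the progenitor classes is within their spread.

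**Figure D4:**
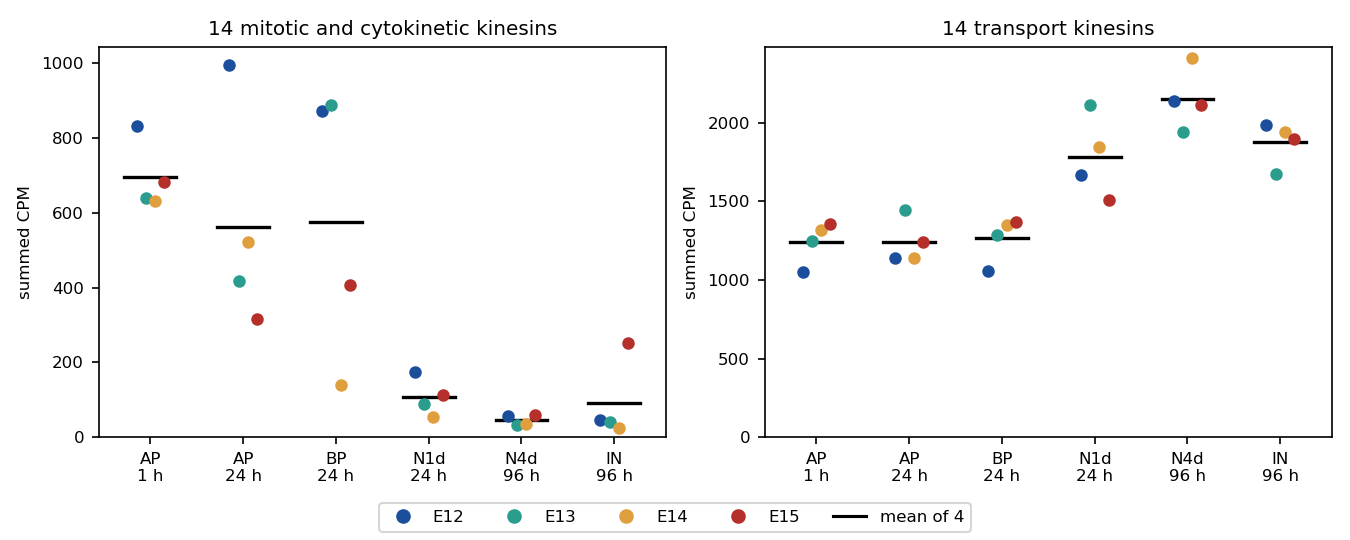
Summed CPM of the 14 mitotic and the 14 transport kinesins in each class at its collection time, 1 point for each injection day and a bar at the mean of 4. Mitotic sums are 632 to 831 CPM in AP at 1 h and 32.2 to 58.9 CPM in N4d, and transport sums 1049 to 1359 CPM in AP at 1 h and 1943 to 2414 CPM in N4d.

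The 4 apical clusters at 1 h differed widely in mitotic kinesins. With the cells of all days summed, Kif11 stood at 253.3 CPM in AP.mid2, 116.6 CPM in AP.early, 32.3 CPM in AP.late and 16.2 CPM in AP.mid1, each over more than 100 cells. Kif15 gave 225.5, 191.1, 33.7 and 78.9 CPM and Kif23 224.5, 59.5, 25.3 and 30.9 CPM in the same order. The clusters hold the days unequally: E12 gave 92.5% of the AP.early cells, E13 57.3% of AP.mid1 and E15 78.98% of AP.late. AP.mid2 held at least 10 cells on 3 days, with 254.5, 237.1 and 267.996 CPM of Kif11 for E13, E14 and E15, and its 5 cells of E12 are not given a value of their own. Among basal progenitors at 24 h, BP.early (98 cells) held 123.97 CPM of Kif11, 162.1 CPM of Kif15 and 186.3 CPM of Kif22, and BP.late (70 cells) 7.38, 6.27 and 18.0 CPM. These clusters also hold the days unequally: E12 gave 65.3% of the BP.early cells, and all 8 BP cells of E14 were BP.late. The part of this in the BP values by day was not tested.

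In a share of cells each cell counts once, whatever its depth. Among cells with at least 100000 counts, the share with 100 CPM or more over the mitotic kinesins was 80.2%, 52.2%, 57.0% and 51.4% in AP at 1 h, 82.2%, 61.7%, 25.0% and 38.2% in BP at 24 h, and 25.2%, 13.1%, 15.9% and 22.0% in N1d at 24 h. In N4d at 96 h it was 12.0%, 8.87%, 8.65% and 15.6%. In IN at 96 h it was 8.54%, 7.50%, 6.90% and 11.8%. How much of these shares comes from stray RNA was not tested. With each cell thinned to 100000 counts, the N4d shares were 11.3%, 9.85%, 8.65% and 15.6%.

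**Figure D5:**
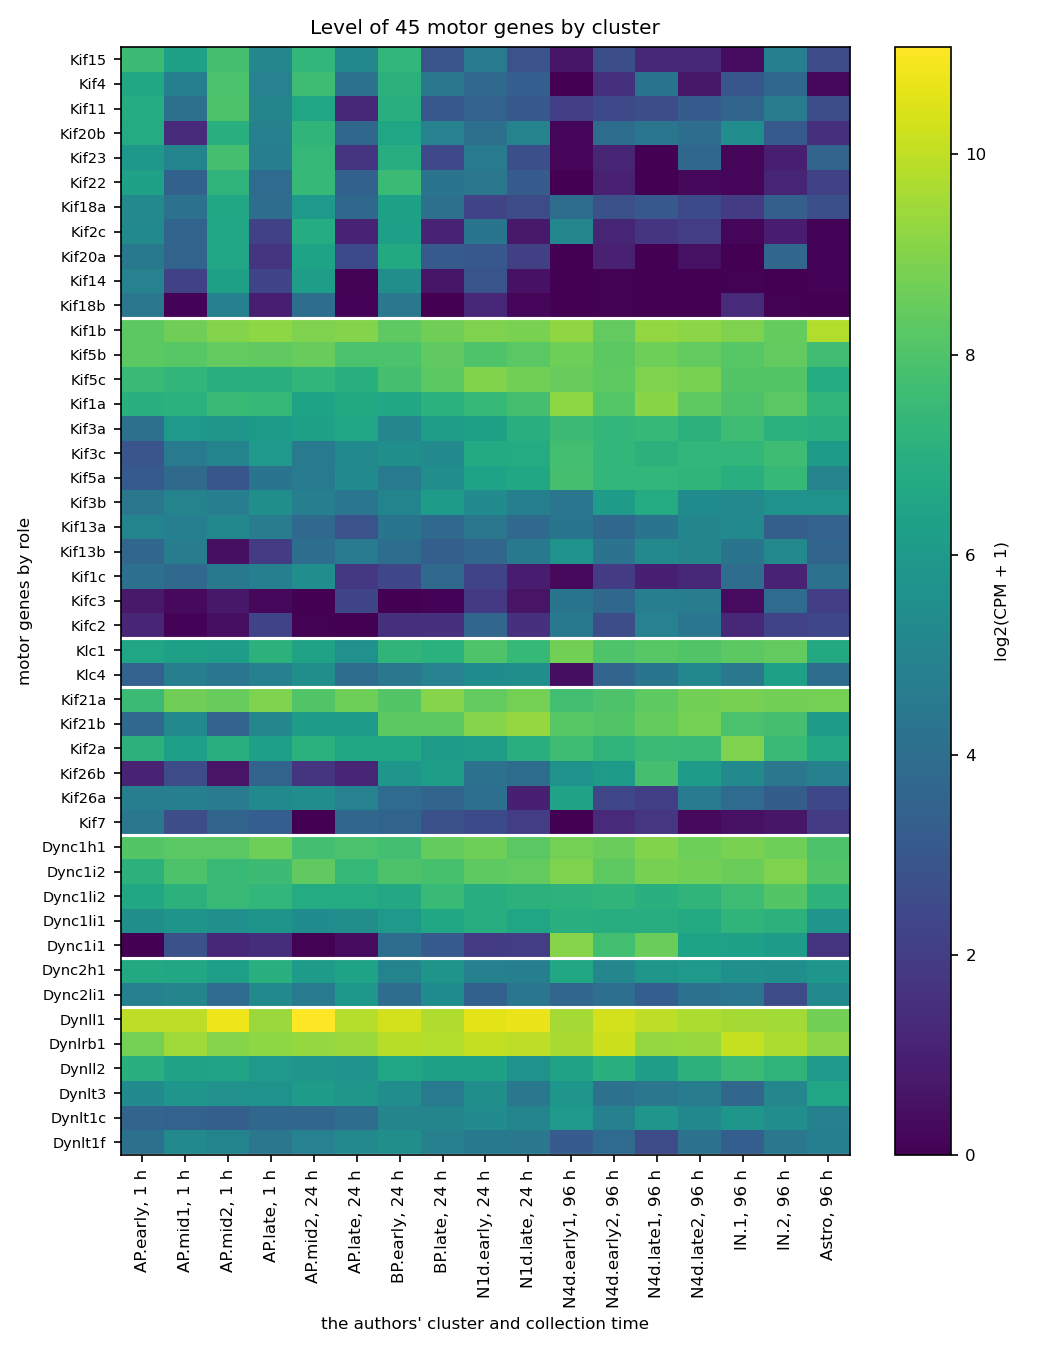
Level of the 45 members tested, as log2(CPM + 1), in the authors' clusters at their collection times, with the cells of all injection days summed, and colours to be compared along a row. Kif11 is at 253.3 CPM in AP.mid2 and 123.97 CPM in BP.early at 24 h, and Dync1i1 lies between 85.4 and 536 CPM in the N4d clusters.

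At 24 h some motors stood higher in basal than in apical progenitors. Of these, Kif21b and Kif5c were higher again in N1d, while Kif26b and Kif18a were lower in N1d. Values did not overlap between BP and AP, with BP higher, for 6 of the 43 members past the filter (Kif21b, Kif5c, Kif3b, Kif26b, Kif18a and Dync1li1), against 3.07% of all genes. BP was lower for 1 member, Kif3a, against 3.1% of all genes. Kif21b was 67.1, 27.4, 54.5 and 87.2 CPM in AP, 293.8, 488, 188.9 and 172.99 CPM in BP and 536, 750, 507 and 621 CPM in N1d. Kif5c went from 133.7 ± 30.0 CPM (SD, n = 4) in AP to 251.8 ± 61.5 CPM in BP and 455 ± 106.9 CPM in N1d. Kif26b was highest in BP, with 52.02, 58.8, 112.9 and 68.3 CPM against 2.30 ± 3.09 CPM in AP and 15.5 ± 3.73 CPM in N1d, and so was the mitotic Kif18a, with 52.8 ± 3.67 CPM against 28.1 ± 15.6 and 4.57 ± 1.50 CPM. Without the E14 sums BP was higher for 9 members (7.79% of all genes) and lower for 2 (6.64%).

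Between N1d and BP at 24 h, N1d was higher without overlap for 6 of 40 members (Kif21b, Kif5a, Kif5c, Kif3c, Dync1i2 and Dynll1; 7.63% of all genes) and lower for 4 (Kif18a, Kif22, Kif4 and Kif26b; 5.81% of all genes). Kif5a stood at 33.0, 28.5, 25.2 and 30.5 CPM in BP and 66.9, 107.8, 95.5 and 85.3 CPM in N1d. Kif3c went from 32.2 ± 23.3 CPM (SD, n = 4) to 109.1 ± 27.7 CPM. Without the E14 sums, whose BP value rests on 8 cells, N1d was higher for 7 members (11.1% of all genes) and lower for 9 (11.1%), with Kif11, Kif15, Kif18b, Kif20a and Kif23 added to the lower ones.

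Interneurons of 96 h passed the same sort but are known to arise outside the cortex. Against N4d, IN was lower without overlap for 2 of 34 members, Dynll1 and Kif21b (5.59% of all genes), and higher for 0 (3.6%). Dync1i1 averaged 220.7 ± 91.2 CPM (SD, n = 4) in N4d and 61.3 ± 34.6 CPM in IN, with values that overlap between the 2 classes. Its share of the intermediate chains was 42.0%, 38.7%, 42.98% and 20.5% in N4d and 12.6% ± 5.52 in IN. Kif2a was 490 CPM in the cluster IN.1 and 180 CPM in IN.2, against 146.3 to 200 CPM in the N4d clusters. Interneuron markers summed to 1536 to 2265 CPM in IN and 79.1 to 214.9 CPM in N4d.

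Among 4-day neurons the clusters differed in Dync1i1, Kif1a and Kif26b. Dync1i1 stood at 536 CPM in N4d.early1 (30 cells), 381 CPM in N4d.late1, 210 CPM in N4d.early2 and 85.4 CPM in N4d.late2, each of the other 3 over more than 100 cells. By injection day it was 256.1, 210.8, 197.6 and 138.1 CPM in N4d.early2 and 143.7, 74.4, 122.8 and 46.3 CPM in N4d.late2, lower in N4d.late2 on each of the 4 days. Kif1a stood at 585 and 557 CPM in N4d.early1 and N4d.late1 and at 283.2 and 323 CPM in N4d.early2 and N4d.late2. Kif26b stood at 226.2 CPM in N4d.late1 and between 51.3 and 67.8 CPM in the others. N4d.late1 is nearly 1 sample, since 92.5% of its cells are from E14, the day with the highest Kif26b among the lineage sums of 96 h. Within E14, Kif26b was 230.99 CPM in N4d.late1, 87.2 CPM in N4d.early2 and 96.8 CPM in N4d.late2, and Dync1i1 was 395, 197.6 and 122.8 CPM in the same order. In astrocytes of E15 at 96 h (54 cells), Kif1b was 886 CPM, Kif21b 35.7 CPM and Dync1i1 2.04 CPM, with no replicate.

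No member passed as changing with injection day within AP at 1 h, N1d at 24 h or N4d at 96 h (edgeR, 45 members). This does not show that the members stay level, since the test finds few slopes of moderate size. On simulated data for the AP slope (9826 genes), 7% of genes with 0.5 log2 per day were called. Of those with 1 log2 per day, 49% were called. Among all genes 1.03%, 0.383% and 0.049% passed. At an unadjusted p under 0.05 there were 5, 8 and 7 members, where all genes gave 10.2%, 12.9% and 7.81%. DESeq2 called 4, 1 and 2 members, where all genes gave 3.36%, 3.79% and 1.63%. The 4 in AP were Kif3a, Kif3c, Kif21a and Kif21b, all higher on later days. The cluster that holds most AP cells differs between days, with 95.03% of them in AP.early at E12, 62.7% and 52.5% in AP.mid1 at E13 and E14, and 58.2% in AP.late at E15, and the part of this in the slopes was not tested. The smallest adjusted p in edgeR was that of Kif21a (log2 change per day 0.42 ± 0.11, adjusted p = 0.114). Without the E13 or the E15 1 h sum, 1 and 2 members passed in AP. In N1d DESeq2 called Kif26a (-1.49 per day, adjusted p = 0.00920, DESeq2). In N4d it called Kif20a and Kif23, with opposite signs (2.75 and -0.93 per day). Both were low, at 0 to 8.74 CPM and 2.81 to 7.98 CPM in the lineage sums of 96 h.

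Genes that work with these motors were counted from lists by role. Among all genes tested, 11.4% rose and 7.76% fell from 1 h to 24 h. From 24 h to 96 h, 11.7% rose and 12.5% fell. Of 19 mitotic partners, such as the spindle kinases and the central spindle proteins, 10 fell from 1 h to 24 h and 17 from 24 h to 96 h, with medians of -1.27 and -2.51. Of 18 kinesin adaptors, 6 rose in the first step, among them Arl8a (log2 1.73 ± 0.35, adjusted p = 0.00454, edgeR), which links lysosomes to kinesin, and Trak1 (1.21 ± 0.23, adjusted p = 0.00249, edgeR), which links mitochondria. In the later step 4 of 18 rose, led by Kifap3, the kinesin-2 adaptor (1.22 ± 0.16, adjusted p = 0.000232, edgeR), and 0 fell in either step.

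Of 21 genes of dynactin and dynein regulators, 4 rose from 1 h to 24 h, the dynactin subunits Actr1a, Dctn3, Dctn5 and Dctn6 (log2 0.62 to 0.91), and 2 fell. All genes gave 11.4% and 7.76% in that step. From 24 h to 96 h, 2 of the 21 rose and 2 fell, where all genes gave 11.7% and 12.5%. Nde1, which dynein needs in progenitor mitosis and nuclear movement, fell by 1.27 ± 0.25 and then by 2.93 ± 0.27 on the log2 scale (adjusted p = 0.0039 and 2.78e-05, edgeR). Nin, a minus-end adaptor, fell by 1.89 ± 0.49 and then rose by 3.00 ± 0.52 (adjusted p = 0.0172 and 0.00153, edgeR). Of 10 microtubule-associated proteins tested, 4 rose in the first step (Dcx, Map2, Map9 and Mapt) and 7 in the later one.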

How the data were processed

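The deposited table holds raw counts per gene and cell, mapped by the authors with TopHat2 2.0.13 to GRCm38, per the submitters' processing notes, which also name UMI-tools. The counting tool, annotation, strand setting and role of UMI-tools are not given in the sources used here. The total count of a cell was 0.987 to 1.00 of its labelled read number, so duplicates of the cDNA amplification may remain. Counts of cells were summed by condition and class, since cells are not replicates, 0 columns were left unmatched, 0 cells held identical values, and no doublet caller was run. Time was tested on 12 lineage sums (collection time plus injection day) with edgeR 4.0.16 in R 4.3.3 (quasi-likelihood, TMM, at least 10 CPM in 3 sums, 8 residual degrees of freedom, biological coefficient of variation 44.1%), and slopes on day on 12 class sums (6 degrees of freedom, 46.3%). DESeq2 1.42.0 was an alternative. The filter kept 10210 genes, 45 of them members. Full values go to the members with the highest levels in each role and to up to 8 called members a direction with a mean of at least 20 CPM and 1 sign on every day. Tested on simulated data for the 24 h against 1 h comparison (9840 genes), 26% of genes changed by a log2 of 1 and 67% of those changed by 2 were called. The members, roles and partner and marker lists were chosen with earlier results of these data known. The setting without the E14 sums was chosen after seeing the data.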

Additional observations from a re-analysis of the deposited data

Results flagged for a closer look

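In groups of 4 sums, the highest or lowest sum was checked for its distance from the other 3 (Dixon's 95% critical value). Of 72 groups of 4 from 24 members, 5 held such a sum, where chance alone gives about 1 in 20. Dync1h1 at 24 h was 364 CPM in E13 against 287.9 to 294.8 CPM in the other days. Kif21b at 24 h was 613 CPM in the same E13 sum against 392 to 421 CPM. At 1 h, Dynlrb1 was 438 CPM in E12 against 652 to 675 CPM, Kif4 was 64.5 CPM in E13 against 98.2 to 102.2 CPM, and Kif26b was 15.5 CPM in E15 against 3.89 to 5.29 CPM. The calls of Kif21b held without any single sum.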

How the results depend on the processing

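Of 30 calls of single members, 13 held and 0 reversed under every alternative that could be fitted (19 for the time comparisons). Members lower at 24 h than at 1 h numbered 3, but 6 with DESeq2, 11 with AP and N1d alone, 5 with day as 4 levels, and 1 to 4 when each sum was left out in turn. Mitotic kinesins lower at 24 h (2) numbered 4 with DESeq2, 8 with AP and N1d alone and 0 to 3 on leaving out each sum. Leaving out each sum gave 6 to 12 members higher at 24 h, 5 to 13 higher and 4 to 8 lower at 96 h, 4 to 8 mitotic kinesins lower at 96 h, and 3 to 4 and 3 to 7 transport kinesins higher at 24 h and 96 h. Transport kinesins higher at 96 h were 3 with N1d and N4d alone. Slopes on day went from 0 to 4, 1 and 2 members with DESeq2 in AP, N1d and N4d, and to 0 to 2 in AP on leaving out a sum. Paralog shares at the smallest exact p numbered 8 to 11 on leaving out a sum, against 12. Without the E14 sums, an alternative added after seeing the data, BP was lower than AP for 2 members (1 with all sums) and N1d lower than BP for 9 (4 with all sums). The cause of these moves was not tested. No paired analysis was possible by replicate number because the labels' numbers only count cells. The injection days do join the times, and with day as a block (the 4 levels above) 9 members were higher and 5 lower at 24 h and 7 higher and 6 lower at 96 h, against 11, 3, 10 and 6. With 4 sums a time and a biological coefficient of variation of 44.1%, small changes of low members were not detectable.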
